A study of Mus musculus with 20 samples.

Results

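C/EBPβ binding was followed here around 10 mouse genes of the extracellular matrix: Fbn1, Dcn, Lum, Fn1, Thbs1, Thbs2, Postn, Sparc, Lox and Eln. All peaks of the 5 deposited peak lists were taken whose midpoint lay inside the mm10 span of one of these genes or within 50 kb of it. Peaks that shared at least 1 bp were merged into a site, and sites near both Dcn and Lum, which are neighbours, were counted once. The rule found 206 peaks in 72 sites, of 23854 merged sites in the whole series. The set was chosen by matrix function, with earlier results of these data known. Fbn1 and Dcn were picked on their site counts in the induced lists. In wildtype cells without the inhibitor these were 13 sites at Fbn1 and 4 at Dcn. They were 21 and 10 in mutant cells, and 18 and 10 in wildtype cells with the inhibitor. Numbers of sites below are therefore a description, with no test.

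The cells were 3T3-L1, a mouse preadipocyte line of fibroblast-like cells that can be turned into fat cells. All of them carried a doxycycline-inducible, HA-tagged C/EBPβ of the LAP form, either wildtype (WT) or with its PARylation sites mutated (Mut). Cells were held 2 days in contact inhibition and given vehicle (WT -Dox, Mut -Dox) or 1 µg/ml doxycycline for 8 h (WT +Dox, Mut +Dox). In the fifth condition, WT +Dox +BYK, the PARP inhibitor BYK204165 was given 1 h before doxycycline. The labels give neither the dose of the inhibitor nor whether a line is 1 clone or a pool, and peak lists alone cannot check the cell type or the level of the induced protein. In the text these are called uninduced wildtype, uninduced mutant, induced wildtype, induced mutant and inhibitor lists, and 5 values in a row follow this order. The antibody was raised to C/EBPβ, so a peak can come from the cells' own protein as well as from the induced one. Each condition had 2 ChIP and 2 input libraries, 20 in all, but is represented by 1 peak list without replicate numbers. No spread between replicates can therefore be given for any value below, and no p-value is given.

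The lists held 6898 to 18371 peaks, the shortest from Mut -Dox and the longest from WT +Dox +BYK. The depth behind them is unknown, and a longer list can hold more sites near any gene. Shares over all protein-coding genes are therefore printed beside the counts, together with counts from lists of equal length, which keep the 6898 highest-scoring peaks of each condition. Scores are those that the authors gave to each peak. They were used to rank peaks within a list, where a percentile of 100 is the top, and as a fixed minimum in 1 alternative setting.

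C/EBPβ binds DNA as a basic leucine zipper dimer and is switched on at the start of fat cell formation, and PARylation is the attachment of poly(ADP-ribose) chains by PARP enzymes. Preadipocytes make a fibroblast-type matrix that is remodelled as they become fat cells. Fibrillin 1, elastin and the cross-linking enzyme lysyl oxidase (Fbn1, Eln, Lox) build microfibrils and elastic fibres. Decorin and lumican (Dcn, Lum) are small leucine-rich proteoglycans that bind collagen fibrils. Fibronectin, the thrombospondins, periostin and SPARC (Fn1, Thbs1, Thbs2, Postn, Sparc) are secreted glycoproteins that link cells, growth factors and matrix.

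Promoter sequences (250 bases before to 50 after an annotated start) were available from RefSeq, build GRCm38.p6, for 4 of the 10 genes: Fbn1, Postn (with 2 starts), Sparc and Thbs2. No list had a peak over any of these 5 promoters. A peak lay over 2.16% to 4.79% of all 32851 promoters, depending on the list, so 0 of 5 is near that background. Sites did cover an end of 4 of the other genes: Dcn, Lox, Thbs1 and Fn1. The 3 below are shown because they mark the starts from which the sites were distant: Fbn1 with the most sites of the 10 genes, Thbs2 with a dense cluster on both sides, and the later start of Postn, the only promoter of the 5 with C/EBP letters. They read 5′ to 3′ on the gene's strand, with capitals at motif matches. The Fbn1 promoter lies at chr2:125506389-125506688 on the minus strand, that of Thbs2 at chr17:14694213-14694512 on the minus strand, and that of Postn at chr3:54360857-54361156 on the plus strand.
Fbn1: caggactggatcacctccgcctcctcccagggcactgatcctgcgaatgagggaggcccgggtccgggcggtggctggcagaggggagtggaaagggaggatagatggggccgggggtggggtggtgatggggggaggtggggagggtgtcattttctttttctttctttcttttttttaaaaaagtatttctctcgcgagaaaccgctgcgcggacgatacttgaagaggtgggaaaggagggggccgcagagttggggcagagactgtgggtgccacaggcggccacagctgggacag
Thbs2: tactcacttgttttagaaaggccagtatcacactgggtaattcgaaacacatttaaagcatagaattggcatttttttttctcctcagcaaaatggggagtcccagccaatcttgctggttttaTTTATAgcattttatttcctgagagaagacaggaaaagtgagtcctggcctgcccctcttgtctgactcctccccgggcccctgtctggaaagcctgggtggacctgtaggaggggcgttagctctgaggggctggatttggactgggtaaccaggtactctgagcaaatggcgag
Postn: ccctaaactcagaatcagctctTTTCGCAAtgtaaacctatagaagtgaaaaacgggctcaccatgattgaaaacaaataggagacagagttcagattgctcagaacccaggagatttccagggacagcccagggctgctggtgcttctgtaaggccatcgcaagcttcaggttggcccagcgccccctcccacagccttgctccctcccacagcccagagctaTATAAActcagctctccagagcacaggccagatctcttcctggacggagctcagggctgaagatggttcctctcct
Each promoter was searched on both strands for 6 motifs. For C/EBP factors the letters were TTGCNNAA, and for their dimers with ATF factors TGATGCAA. For AP-1 the letters were TGANTCA and for the CRE the palindrome TGACGTCA. The TATA box was searched as TATAAA and the TEAD motif as GGAATG; no matches overlapped. TTGCNNAA was found once, on the reverse strand of the Postn promoter at position -228 (the leftmost base of the match, with the start at 1), and it occurs in 10.8% of all promoters of this length. TATAAA was found at -26 in the same promoter and, on the reverse strand, at -126 in that of Thbs2; 13.6% of all promoters hold it. The Fbn1 and Sparc promoters and the earlier one of Postn had no match to any of the 6 motifs. The site nearest to the start was 7.5 kb away for Fbn1, 9.69 kb for Thbs2, 5.23 kb for Sparc and 52.5 kb for the Postn start shown.

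The 10 genes together had 31, 27, 33, 56 and 59 sites, from the uninduced wildtype to the inhibitor list. These were 0.285%, 0.393%, 0.269%, 0.315% and 0.324% of all sites of the same list, so the share was lowest in WT +Dox and highest in Mut -Dox. The peaks near the genes covered 24.9, 25.5, 30.1, 61.8 and 54.5 kb in the same order. Of the 72 sites, 15 (20.8%) carried a peak in all 5 lists, close to the 21.8% of all sites. A further 14 sites (19.4%) were found in Mut +Dox and WT +Dox +BYK and in no other list, against 10.1% of all sites. The inhibitor list alone held 8 (11.1%, against 13.1%) and the induced mutant alone 3 (4.17%, against 11.9%). The induced wildtype alone held 0, a class that made up 2.23% of all sites. No peak in either uninduced list was found at 34 sites (47.2%, against 51.5%), and 5 had a peak only in uninduced cells (6.94%, against 4.03%). Fbn1 and Dcn, picked on their counts in these lists, are among the genes counted, so nothing is read from these differences.

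**Figure D1:**
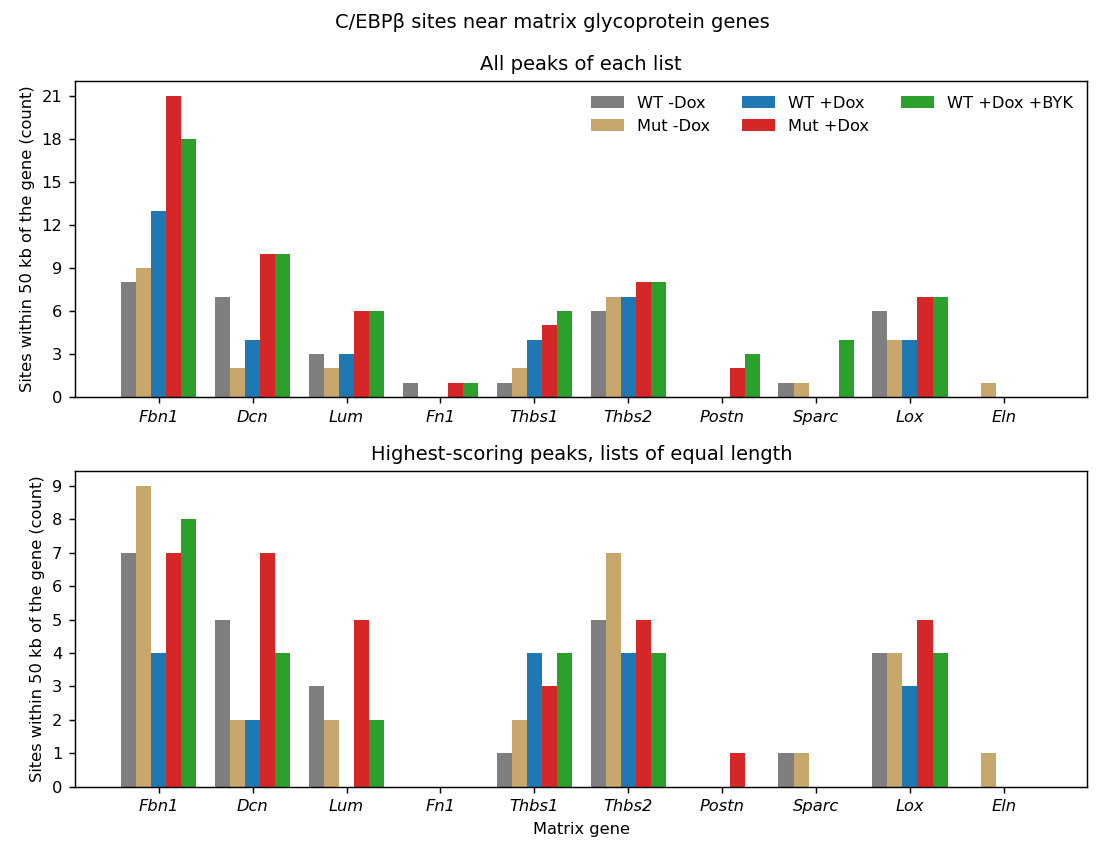
Number of C/EBPβ sites within 50 kb of each gene, bars coloured by condition, with all peaks (top) and with the 6898 highest-scoring peaks of each list (bottom); each bar is 1 list, so there is no error bar. Fbn1 reached 21 sites in Mut +Dox with all peaks, and 7 at equal list length, where WT +Dox had 4.

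The genes differed in site density, and 6 of them are called densely bound here. Per 100 kb of searched window, over the merged sites, Dcn had 9.38, Thbs2 8.54, Lox 7.03, Fbn1 6.87, Lum 6.53 and Thbs1 6.07, where the mean over the windows of 21883 protein-coding genes was 1.16. Each of these 6 lay at or above percentile 99.3 of all genes by this density. Sparc had 3.18, Postn 2.28, Fn1 1.19 and Eln 0.691 sites per 100 kb, at percentiles 90.6, 81.3, 63.4 and 44.4. With no replicates, the order of neighbours in this series, such as Lox, Fbn1 and Lum, has no error to judge it by. Sites shared by Dcn and Lum enter the density of both, and sites inside Fsip1 enter that of Thbs1. The members were chosen with earlier results of these data known, so nothing is read from their percentiles among all genes. Most sites lay outside the genes: 20 of the 72 midpoints were inside a member and 6 within 1 kb of a member's end. Counting every protein-coding gene, 36.1% of the 72 sites lay inside a gene, against 62.2% of the 18517 sites of the series within 50 kb of a gene. Gene length was not matched between these shares, and the window adds 50 kb on each side of spans as short as 7.2 kb for Lum. For 60 of the 72 sites the nearest protein-coding gene was a member.

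At the edge of the window, the outermost sites counted lay 48.1 kb from Dcn, 47.8 kb from Lum and 45.3 kb from Thbs2. The nearest ones left out lay 50.3 kb from Lox, 52.0 kb from Lum and 54.4 kb from Thbs2. The Lox site left out (chromosome 18, 52465209 to 52466308) had a peak in 3 lists.

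Fbn1, which encodes the main protein of microfibrils, carried the most sites. In and within 50 kb of its span of 206 kb on chromosome 2 (125300594 to 125506485) lay 8 sites in the uninduced wildtype, 9 in the uninduced mutant, 13 in the induced wildtype, 21 in the induced mutant and 18 in the inhibitor list. Every one of its 21 merged sites had a peak in Mut +Dox, and none was found in 1 list only. Inside the span the counts were 4, 5, 6, 12 and 12 of 12 sites, so both longest lists held all sites within the gene and WT +Dox held 6. A cluster of 6 sites lay within 10 kb of the lower-coordinate end, which is the end opposite to the annotated start. This cluster took up 14.2 kb and had 1 site in the uninduced wildtype, 2 in the uninduced mutant, 4 in the induced wildtype and 6 in each of the other lists.

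The highest-scoring Fbn1 site in each induced list lay 22.0 kb beyond that end (125278017 to 125279255). Its scores were 212, 183, 434, 742 and 581, at percentiles 79.6, 74.9, 95.7, 98.3 and 96.4 of the lists. A site inside the gene (125318053 to 125319319) stood at percentiles 92.7 and 92.9 of the uninduced lists WT -Dox and Mut -Dox. In WT +Dox it scored 84.25, percentile 40.3, and it was at percentiles 76.9 and 87.6 of the induced mutant and inhibitor lists. Percentiles of lists of different length show no change of binding, and this site stood near the top of both uninduced lists and below the middle of WT +Dox. Another site inside the gene (125418209 to 125419178) had a peak in every list except WT +Dox. Its scores there were 130, 55.1, 139 and 140.2. Of the sites outside Fbn1, 5 were closer to a neighbour: 2 to Dut, the site with the highest induced scores among them, and 3 to Cep152.

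**Figure D2:**
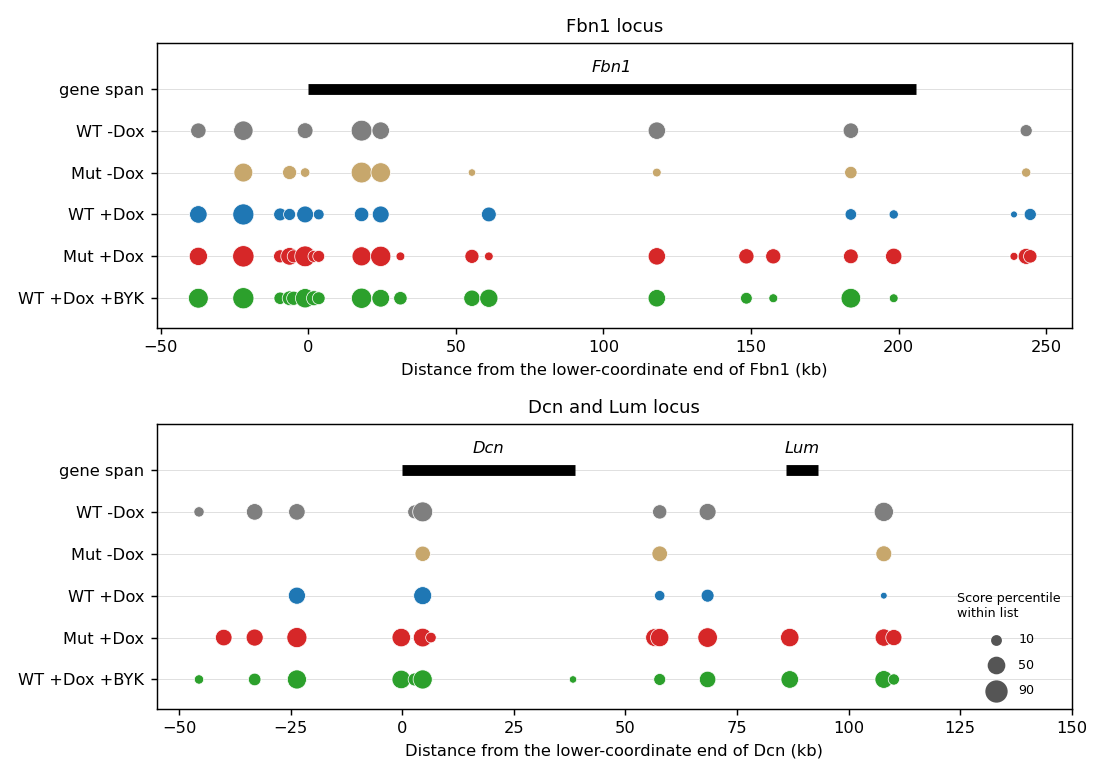
Sites near Fbn1 (top) and near Dcn and Lum (bottom) in each list, placed by the distance of the site's midpoint in kb from the lower-coordinate end of Fbn1 or Dcn; the dot area grows with the percentile of the score within its list, and black bars are gene spans. The Mut +Dox row has a dot at each of the 21 Fbn1 sites, and the WT +Dox row at 13.

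Dcn and Lum lie next to each other on chromosome 10 (97479500 to 97518163 and 97565501 to 97572703) and share 5 sites. Together they had 15 sites, of which 8 were in the uninduced wildtype, 3 in the uninduced mutant, 5 in the induced wildtype and 12 in each of the other lists. Dcn alone had 7, 2, 4, 10 and 10 sites in this order of conditions, and Lum 3, 2, 3, 6 and 6. The induced wildtype list had fewer Dcn sites than the uninduced wildtype list, and Mut -Dox had the fewest. Dcn was picked on its counts in the induced lists, and Lum shares sites with it. Nothing is therefore read from the differences between lists at these 2 genes. A wide site of 2894 bp (97477822 to 97480715) covered the lower-coordinate end of Dcn and was found in Mut +Dox and WT +Dox +BYK only, at scores of 179 in both and percentiles 71.3 and 71.8. In Lum the same pair of lists had the site inside the gene (97565855 to 97566755), at scores of 177 and 144. A single site inside Dcn (97483583 to 97484554) had a peak in all lists, with scores of 254, 93.4, 141, 190.2 and 209.6. The median percentile of the Dcn sites was highest within the induced mutant list, at 70.5. It was 55.0 and 47.3 in the uninduced wildtype and mutant, 44.9 in the induced wildtype and 42.8 in the inhibitor list. The 3 Lum sites of WT +Dox stood low in that list, at percentiles 1.57, 16.4 and 30.2.

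Lox, whose enzyme cross-links collagen and elastin, had 6 sites in the uninduced wildtype, 4 in the uninduced mutant and in the induced wildtype, and 7 in each of the other lists (chromosome 18, 52516060 to 52529867). One of its 8 sites (52529178 to 52530994) covered the upper-coordinate end of the gene and had a peak in all lists, with scores of 184, 77.2, 220.1, 412 and 363 in the order above. It was the highest-scoring Lox site in every list except Mut -Dox, where a site 7.03 kb beyond that end scored 79.35 and the covering site 77.2. A site 2.78 kb beyond the same end (52532263 to 52533023) was found in WT -Dox and Mut -Dox and in no induced list. Eln, which encodes elastin, had 1 site, inside the gene in Mut -Dox (chromosome 5, 134728577 to 134729369), at a score of 54.4 and percentile 7.55. With 1 low-scoring peak in 5 lists, Eln was the least bound of the 10 genes.

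The thrombospondin genes, whose products are antiangiogenic matricellular proteins, differed from each other. Thbs2 (chromosome 17, 14665500 to 14694262) had 6, 7, 7, 8 and 8 sites, the most even counts of the densely bound genes. Of its 11 sites, 5 had a peak in all lists. One of them, 24.9 kb upstream of the annotated start (14718343 to 14719954), stood at percentiles 93.7, 89.6, 97.7, 96.0 and 96.6 of the lists. It was the top-scoring site near any of the 10 genes in the induced wildtype and inhibitor lists. In the uninduced wildtype that place was taken by another of the 5, on the other side of Thbs2 (14635531 to 14636616), with a score of 473. A Thbs2 site 9.69 kb upstream of the start (14703444 to 14704465) was absent from Mut -Dox and scored 86.4, 253, 296 and 435 in the other lists. Thbs1 (chromosome 2, 118111876 to 118127133) had 1, 2, 4, 5 and 6 sites. Only 1 of its 7 sites, found in 4 lists, had a peak in WT -Dox (118171363 to 118172238). The site over the lower-coordinate end of Thbs1 (118110869 to 118112113) scored 56.9 in the uninduced mutant, 111 in the induced wildtype and 71.7 in the induced mutant, and was absent from the others. Of the 7 sites, 5 lay inside the neighbouring gene Fsip1, and their distance alone places them with Thbs1 here.

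**Figure D3:**
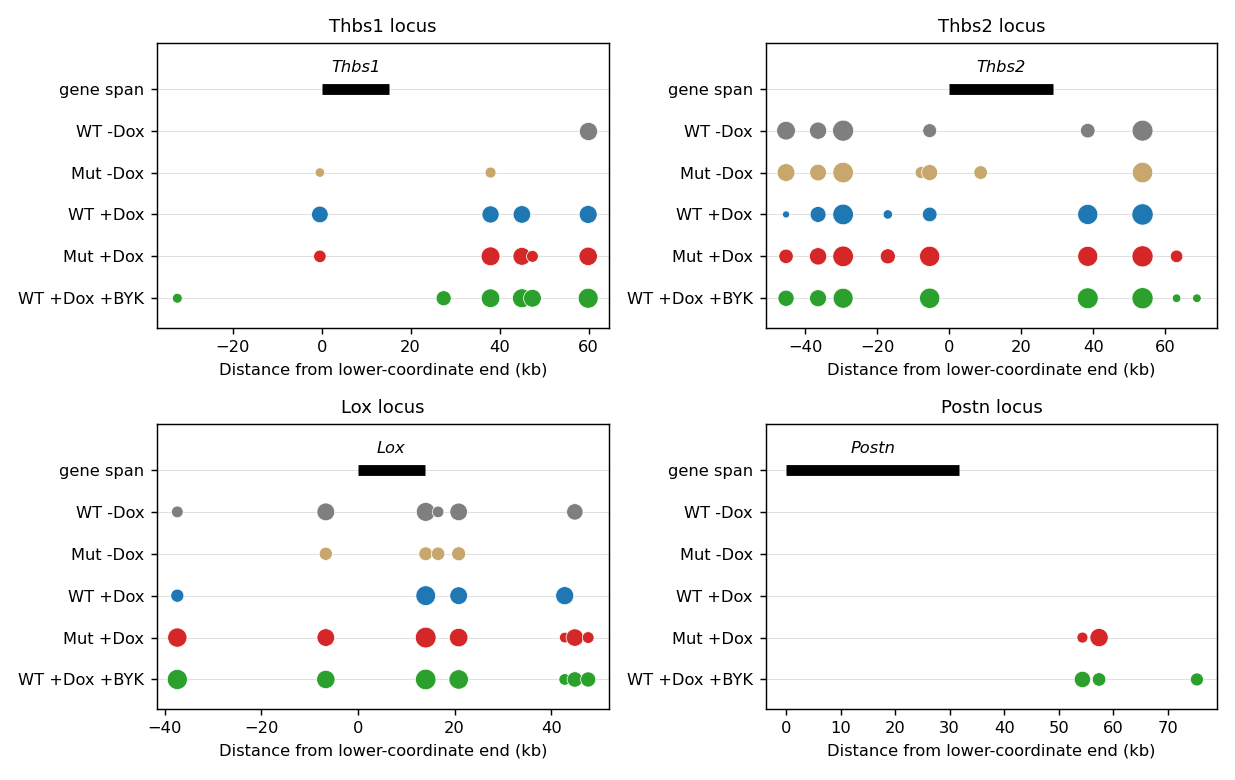
Sites near Thbs1, Thbs2, Lox and Postn in each list, placed by distance in kb from the lower-coordinate end of the gene; the dot area grows with the percentile of the score within its list. At Thbs2, 5 of the 11 sites have a dot in every row, while Postn had none in WT -Dox, Mut -Dox and WT +Dox.

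Few peaks lay near the other 3 glycoprotein genes, and 12 of their 14 peaks stood below the middle of their list. Postn (chromosome 3, 54359267 to 54391041), which encodes the adhesive protein periostin, had 0 sites in both uninduced lists and in the induced wildtype, 2 in the induced mutant and 3 in the inhibitor list. Its highest score was 169, percentile 69.3, in the induced mutant and 116, percentile 54.1, with the inhibitor. Sparc (chromosome 11, 55394159 to 55420080), which encodes a collagen-binding protein, had 1 site in each uninduced list, 0 in the induced wildtype and mutant and 4 with the inhibitor. The 4 inhibitor peaks scored 53.4 to 61.7, at percentiles 5.67 to 16.5 of that list. Fn1 (chromosome 1, 71585473 to 71653280), which encodes fibronectin, had 1 site in each of 3 lists, and 0 in the uninduced mutant and the induced wildtype. The WT -Dox peak covered the upper-coordinate end of Fn1 and scored 53.9, and the site of the 2 other lists lay 27.2 kb beyond it at scores of 50.3 and 80.3.

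The first comparison asks how sites changed when wildtype C/EBPβ was induced. Thbs1 went from 1 site to 4, Fbn1 from 8 to 13 and Thbs2 from 6 to 7, while Dcn went from 7 to 4, Lox from 6 to 4, and Fn1 and Sparc from 1 to 0. Of the 8 genes with a site in either list, 3 had more after induction and 4 fewer. Over all genes with a site in either list the shares were 35.6% with more and 22% with fewer. Of the 31 sites in WT -Dox, 21 (67.7%) were found again, 10 were not, and 12 were found after induction only. The new ones were 27.9% of the 43 sites in either list (Wilson interval 16.7 to 42.7 at 95%, counting error only), and 27.9% over all sites of the series. The lost ones were 23.3% of them, against 18.4% over all sites. Of the 10 sites not found in WT +Dox, 5 had a peak in the induced mutant and 7 with the inhibitor, 8 in at least 1 of these; over all 2772 such sites, 71.3% had one in at least 1. With lists of equal length the total went from 24 sites to 17, fewer at 6 genes and more at Thbs1 alone of the 7 with a site. Over all genes 26.2% had fewer and 25.3% more. The WT +Dox counts are among those on which Fbn1 and Dcn were picked, and Lum shares sites with Dcn. Nothing is therefore read from the differences on wildtype induction.

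In the mutant line the same comparison gave 27 sites before and 56 after induction. Fbn1 went from 9 to 21, Dcn from 2 to 10, Lum from 2 to 6, Lox from 4 to 7 and Thbs1 from 2 to 5. More sites were counted at 8 of the 10 genes and fewer at Sparc and Eln, each 1 and 0. Over all genes with a site in either list, 72.7% had more and 3.1% fewer. The 34 sites found after induction only were 55.7% of the 61 in either list (43.3 to 67.5), against 62.5% over all sites of the series. The 5 sites found before induction only were 8.2%, against 3.03%. At equal length the totals were 27 and 29, with 5 genes having more and 4 fewer: Dcn had 2 and 7 and Lum 2 and 5, whereas Fbn1 had 9 and 7 and Thbs2 7 and 5. Over all genes 22.6% had more and 33.2% fewer at that length. Fbn1 and Dcn had the largest rises with all peaks and were picked on their Mut +Dox counts, among others. Lum shares sites with Dcn, so nothing is read from the differences on mutant induction.

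The mutant and wildtype proteins were set against each other after induction to ask whether loss of the PARylation sites goes with other sites on DNA. Of the 8 genes with a site in either list all 8 had more in Mut +Dox, where 45.1% of all genes with a site did and 13.5% had fewer. Fbn1 and Dcn were picked for this difference and for that with the inhibitor, so nothing is read from it. All 33 sites of WT +Dox were also in Mut +Dox, and 23 were in Mut +Dox only, 41.1% of the 56 (29.2 to 54.1), against 36.3% over all sites. No site here was in WT +Dox only, where 7.84% of all sites in either list were; these are the counts on which Fbn1 and Dcn were picked. The 23 added sites scored 50.3 to 179, with a median percentile of 45.6 in the Mut +Dox list. Over all sites of Mut +Dox absent from WT +Dox the median percentile was 25.8. Among the 23, 11 stood above the median of the list. At equal length the genes had 17 sites with the wildtype and 29 with the mutant protein. There Dcn had 2 and 7, Lum 0 and 5, Fbn1 4 and 7, Lox 3 and 5, Thbs2 4 and 5, Postn 0 and 1 and Thbs1 4 and 3, so that 6 of 7 had more and 1 fewer. Over all genes 17.6% had more and 28.9% fewer at that length. Fbn1 and Dcn are among the 6, and Lum shares sites with Dcn, so nothing is read from this difference either.

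The inhibitor comparison asks the same within the wildtype line. Sites went from 33 in WT +Dox to 59 with BYK204165, with more at 9 genes and fewer at none; over all genes 52.3% had more and 8.86% fewer. Dcn had 4 and 10 sites, Fbn1 13 and 18, Lum 3 and 6, Lox 4 and 7, Sparc 0 and 4 and Postn 0 and 3. The 30 sites found with the inhibitor only were 47.6% of the 63 in either list (35.8 to 59.7), against 37.1% over all sites. The 4 sites of WT +Dox only, 6.35%, compare with 6.67% over all. Added sites scored 52.2 to 179 with a median percentile of 32.1, and 25.2 over all such sites. At equal length there were 17 and 25 sites, with more at Fbn1 (4 and 8), Dcn (2 and 4), Lum (0 and 2) and Lox (3 and 4) and equal numbers at Thbs1 and Thbs2; over all genes 20.9% had more and 23.5% fewer. The mutant and inhibitor comparisons share the WT +Dox list, which had the fewest sites near these genes at equal length, so they are not independent of each other. The picked genes Fbn1 and Dcn, and Lum with sites shared with Dcn, are among those with more. Nothing is therefore read from the inhibitor counts.

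The uninduced lines were compared last. Mut -Dox, the shorter list, had 27 sites and WT -Dox 31. More sites in Mut -Dox were counted at Fbn1 (9 and 8), Thbs1 (2 and 1), Thbs2 (7 and 6) and Eln (1 and 0), and fewer at Dcn (2 and 7), Lum (2 and 3), Lox (4 and 6) and Fn1 (0 and 1). Over all genes with a site in either list 6.03% had more in Mut -Dox and 52.8% fewer. Sites of Mut -Dox only were 18.4% of the 38 in either list (9.22 to 33.4), against 6.21% over all sites. These 7 sites had a median percentile of 19.1 in the Mut -Dox list, and all such sites of the series 17.4. Sites of WT -Dox only were 28.9%, against 40.7% over all sites. At equal length the totals were 27 and 24, with 4 genes having more in Mut -Dox and 2 fewer, where 22.7% and 23.4% of all genes did. The members were chosen with earlier results of these data known, and the interval treats sites clustered at the same genes as independent. Nothing is therefore read from the differences between the uninduced lines.

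**Figure D4:**
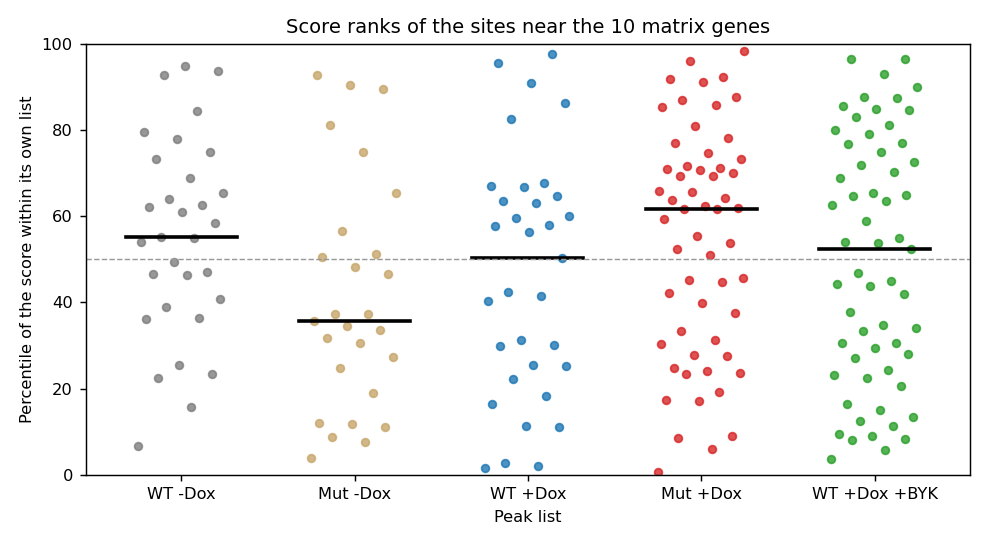
Percentile of each site's score within its own list for the sites near the 10 genes, 1 column of points per list; the thick line is the median of the column and the dashed line is the middle of a list. The medians were 55.2, 35.6, 50.3, 61.6 and 52.4 from WT -Dox to WT +Dox +BYK.

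Within their lists, the peaks near the 10 genes stood highest in Mut +Dox, with a median percentile of 61.6, and lowest in Mut -Dox, with 35.6. The other medians were 55.2 in the uninduced wildtype, 50.3 in the induced wildtype and 52.4 with the inhibitor. Of the 56 peaks in Mut +Dox, 21 lay near Fbn1 and 10 near Dcn, the genes picked on such counts. The lists also differ in length, so nothing is read from the order of the medians.

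Other matrix genes were set beside them in 4 lists with 61 genes in all. From WT +Dox to Mut +Dox, 32 of the 52 with a site had more sites and 3 fewer, where 45.1% and 13.5% of all genes did. With the inhibitor 36 of 54 had more and 2 fewer, where 52.3% and 8.86% of all genes did. The median difference was 1 site in both, where all genes tested had medians of 0 and 1. On wildtype induction 19 of 48 had more and 8 fewer, where 35.6% and 22% of all genes did. At equal list length the elastic fibre genes had 32 sites in the induced wildtype, 33 in the induced mutant and 36 with the inhibitor. In the same order the proteoglycan genes had 5, 10 and 10, the cross-linking genes 8, 6 and 7 and the adhesive glycoprotein genes 34, 34 and 33. A higher count in both was thus seen for the first and second of the 4 lists, for the first by 1 site in the mutant. The second is not separate from the 10 genes, since Kera, with 1, 4 and 4 sites at equal length, shares sites with Lum. The counts per gene that follow are from all peaks. Among elastic fibre and microfibril genes, Ltbp1, which encodes a binding protein of latent TGF-β, had the most sites, 11 in WT +Dox and 15 in each of Mut +Dox and WT +Dox +BYK. It was followed by Efemp1, a fibulin gene (7, 9 and 8), Emilin2 (5, 7 and 7) and Fbln5, whose product guides elastic fibre assembly (5, 6 and 6). Fbn2, the fetal fibrillin gene, had 1 site in every list. Ltbp3 had 0 in the induced wildtype, 1 in the induced mutant and 5 with the inhibitor.

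All 12 further small leucine-rich proteoglycan genes had at least 1 site, as did 13 of 15 elastic fibre, 12 of 14 cross-linking and 17 of 20 adhesive glycoprotein genes and 61.0% of all protein-coding genes. The proteoglycan genes are not independent, since Ogn, Omd and Aspn are neighbours on chromosome 13. Kera and Epyc lie beside Lum on chromosome 10, and Kera shares sites with it; they had 3 and 3 sites in the induced wildtype, 6 and 6 in the induced mutant and 5 and 3 with the inhibitor. Podn had 2, 5 and 5 in these lists, and Prelp 4, 4 and 3. Among the cross-linking and collagen processing genes, Tll1, a procollagen C-proteinase gene, had 0 in the induced wildtype, 5 in the induced mutant and 3 with the inhibitor. Tgm2, a transglutaminase gene, had 2, 6 and 5, Loxl3 5, 5 and 7, Loxl1 1, 3 and 4, Loxl2 and Plod3 each 1, 2 and 4, and P4ha1 1, 0 and 3. Of the adhesive glycoprotein genes, Matn2 had 7, 9 and 6, Nid2 6, 6 and 7, Nid1 5, 5 and 6, Spp1, the osteopontin gene, 6, 7 and 7, Vcan, the versican gene, 4, 7 and 4, and Tnxb 2, 3 and 5. Ecm1 (2 and 1) and Thbs4 (1 and 0) had fewer in Mut +Dox than in WT +Dox.

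The genes most like Fbn1 in their 5 counts, by the smallest summed absolute difference, were Magi1 (5 sites apart over the 5 lists), Csgalnact1 (6), Pde4d and Pparg (8 each) and Cdk14 (9). Their spans ranged from 130 kb for Pparg to 1300 kb for Pde4d. Pparg, the nuclear receptor gene of fat cell differentiation, had 11, 9, 15, 19 and 17 sites from WT -Dox to WT +Dox +BYK. Most like Dcn were Cdkal1 (2 apart), Cacnb2, Vps13d and Zfpm2 (3 each) and Adam12 (4), where 9 genes were within 4. These genes have spans of 324 to 664 kb, against 38.7 kb for Dcn.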

How the data were processed

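C/EBPβ ChIP and input DNA of 5 conditions were sequenced from 3T3-L1 cells, 2 libraries per group in 10 groups. Tools and build appear in the submitters' processing notes as Bowtie, bedtools and mm10, without versions or roles. MACS stands in the peak names, per the deposited lists. Not given in the sources used here are its version and threshold, how inputs entered and whether replicates were pooled. The deposited lists give a score per peak, made by the authors, whose scale no header names; it was used for ranks within a list and, in 1 alternative, as a minimum applied to all lists.

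Peaks were assigned by midpoint to gene spans widened by 50 kb (21883 protein-coding genes, GRCm38.p6, the coordinates of mm10) and merged at 1 bp overlap. Coordinates are 1-based. The span table has no strand, so gene ends are named by coordinate, except for the 4 genes with a promoter sequence. The lists carry neither replicates nor depth, so no test was run. Intervals are Wilson intervals and cover counting error only. They treat sites as independent, though many lie close together at the same gene, and they are no test against the shares over all sites. All 10 genes and all 61 other matrix genes were matched. Site counting was tested on simulated peaks. The members, gene lists and comparisons were chosen with earlier results of these data known. Named genes were the 10 members, the 4 most bound genes of each further list with its largest rises and falls from WT +Dox to Mut +Dox and to WT +Dox +BYK, and the 5 genes most like Fbn1 and Dcn. Fbn2, the sister gene of Fbn1, was named outside this rule, with its values seen. There were 7 alternatives: windows of 10 and 100 kb, nearest gene, merging across 200 bp, any base in the window, scores of at least 100 and lists of equal length. Sites were not searched for motifs, since no genome sequence was used. Scripts ran under Python 3.11.15 with pandas 2.3.3, scipy 1.17.1, numpy 2.4.6 and, for plots, matplotlib 3.10.9.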

Additional observations from a re-analysis of the deposited data

Results flagged for a closer look

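The number of sites moved in opposite directions on induction of the wildtype and of the mutant protein at 3 of the 10 genes. Dcn had 3 sites fewer in WT and 8 more in Mut, a difference of 11. Lox had 2 fewer and 3 more, a difference of 5, and Fn1 1 fewer and 1 more, a difference of 2. Each direction rests on 1 list per condition, and the differences were not tested. Dcn was picked on its counts in WT +Dox and Mut +Dox, which enter both of its changes, and Lum below shares sites with Dcn. Nothing is therefore read from the directions at these genes. Over all genes with a site in any of the 4 lists, 12.1% had fewer sites in WT and more in Mut. With lists of equal length the changes were -3 and 5 for Dcn, -1 and 1 for Lox and 0 and 0 for Fn1. Lum, at 0 and 4 with all peaks, had -3 and 3. With a window of 10 kb Lox had fewer sites after induction in both lines, from 4 to 2 in WT and from 4 to 3 in Mut. In that window Dcn went from 2 to 1 in WT and from 1 to 3 in Mut.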

How the results depend on the processing

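No paired analysis was possible because each condition has 1 peak list without replicate numbers. Fbn1 and Dcn were picked on the differences of Mut +Dox and of the inhibitor list from WT +Dox, and every alternative cuts the same lists again. A sign that stays is therefore no support for these differences. The difference in sites near the 10 genes stayed positive under all 7 alternatives for Mut +Dox minus WT +Dox, WT +Dox +BYK minus WT +Dox and Mut +Dox minus Mut -Dox. A window of 10 kb gave 11, 13 and 9 for these, 1 for WT +Dox minus WT -Dox and 3 for Mut -Dox minus WT -Dox. In that window mutant induction gave more sites at 3 genes and fewer at 3. A window of 100 kb gave 35 for Mut +Dox minus WT +Dox, 44 for mutant induction, 0 for wildtype induction and -9 for the uninduced lines. Lists of equal length gave 12 for Mut +Dox minus WT +Dox, 8 with the inhibitor and 2 for mutant induction. They gave -7 for wildtype induction and 3 for the uninduced lines. That setting makes only the number of peaks equal, and the lowest score kept ran from 50.0 in Mut -Dox to 139.34 with the inhibitor. The part of list length in the differences was not tested. Scores of at least 100 gave 13 with the inhibitor, -2 for wildtype induction and -10 for the uninduced lines. Counting a site only where its nearest gene is a member gave -1 and -2 for wildtype induction and the uninduced lines. The signs of the latter comparisons, 2 and -4 with all peaks, therefore turn with the setting, and the cause was not tested. Of the 50 counts per gene and list, 50 were within 1.5 times the value with all peaks when peaks within 200 bp were merged. This number was 43 with nearest genes and 32 at equal length. For the windows of 100 and 10 kb it was 25 and 19, and 23 with scores of at least 100. Counts of 0 that stayed 0 are included as unchanged, and the Mut -Dox list is kept whole at equal length. Such counts say nothing about stability.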
